A study of Phragmites australis with 7 samples.

Results

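PaChr24.262 and PaChr17.331 are 2 genes of the common reed, *Phragmites australis*, out of 42095 features counted in each single-cell library. PaChr24.262 lies on the B chromosome, PaChr24, which has 285 features in the files, and the study annotates it as a DDE family endonuclease. PaChr17.331 is its homologue on chromosome 17, one of the standard A chromosomes. The genes were chosen by name, and each is listed once in the feature table of every library and of the section.

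DDE enzymes take their name from the aspartate, aspartate and glutamate residues that hold the metal ions of the active site. They are the catalytic part of many cut-and-paste DNA transposons, in which the enzyme binds the ends of the element, excises it and inserts it elsewhere, and plant genomes also hold genes of this family that have been taken over for other uses. B chromosomes are extra chromosomes that only some plants of a species carry. They do not pair with the A chromosomes at meiosis, vary in number between individuals, and often hold copies of A chromosome genes together with mobile elements. Whether PaChr24.262 or PaChr17.331 encodes an active enzyme was not measured.

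The 6 single-cell libraries came from untreated plants grown in one common garden, 3 European (EU60, EU78, EU620) and 3 of the population that is invasive in North America (NAint61, NAint113, NAint191), each library from the pooled rhizome shoot buds of 1 plant. Protoplasts were run on a 10x Genomics chip, in which every transcript copy is tagged with a unique molecular identifier (UMI). A frozen shoot section of NAint61 was measured on a spatial chip. By the labels, batch 1 holds the single-cell libraries EU60, EU78 and NAint113, batch 2 holds EU620 and NAint191, and batch 3 holds NAint61 alone. The section of NAint61 is labelled batch 1. The deposited libraries held 7154 to 15297 cells and 95335255 to 132478792 UMIs, and 58021 cells were retained in all. Any pair of libraries shared 14 to 52 cell barcodes, at most 0.451% of either library.

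PaChr24.262 was found almost only in the invasive plants. In retained cells it had 1284, 1134 and 705 UMIs in NAint61, NAint113 and NAint191. The EU libraries held 4 UMIs in EU60, 4 in EU78 and none in EU620. There a floor of 3 counts corresponds to 0.0299 UMIs per 1000000 UMIs (CPM), and the counting interval reaches 0.0367 CPM. The corresponding levels were 16.8, 11.07 and 8.16 CPM in the invasive libraries against 0.0342, 0.0324 and 0 CPM in EU. The lowest invasive library thus stood far above the highest EU library. Within the invasive group the counting intervals did not overlap either, and the lowest, NAint191, reached from 7.57 to 8.78 CPM. Intervals here are exact 95% Poisson intervals and cover counting error only.

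Summed over each group, 3123 invasive UMIs stood against 8 EU UMIs, a ratio of 502 with a counting interval of 254 to 1163. The edgeR quasi-likelihood fit over 33264 genes gave a log2 fold change of 8.85 ± 0.80 (SE, invasive over EU, n = 3 and 3) with an unadjusted p of 1.46e-05 and a Benjamini-Hochberg adjusted p of 0.054, just outside the threshold of 0.05. The same threshold with a log2 fold change above 1 was passed in the invasive direction by 0.018% of all genes tested and by 5.61% of the B chromosome genes tested, and in the EU direction by 0.00301% of all genes. PaChr24.262 and PaChr17.331 were not among them. DESeq2 on the same counts gave 8.93 with an adjusted p of 4.53e-22, where it called 1.65% of the genes it tested higher, and the edgeR fit with no filter on low counts gave an adjusted p of 0.0336. With batch as a factor in place of mean reads per cell, the edgeR adjusted p was 0.169. The exact two-sided permutation test of the 6 levels gave p = 0.1, the smallest that 3 against 3 libraries allow. Every invasive library lay above every EU library, as it did for 3.5% of all genes tested and for 60.7% of the 107 B chromosome genes tested.

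The difference was also present inside both batches that hold plants of both groups. In batch 1, NAint113 had 332 times the mean level of EU60 and EU78. In batch 2, NAint191 stood at least 273-fold above the floor of EU620. NAint61 has no EU partner in its batch, so its level cannot be compared within one.

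PaChr17.331 was found in all 6 plants at a low level that did not separate the populations. EU60, EU78 and EU620 held 269, 267 and 103 UMIs of it, and NAint61, NAint113 and NAint191 held 177, 137 and 99. These counts correspond to 2.3, 2.164 and 1.025 CPM in EU and to 2.32, 1.34 and 1.146 CPM in the invasive libraries. The ranges of the groups overlapped. The edgeR log2 fold change was -0.33 ± 0.47 (SE) with an adjusted p of 0.819, and the exact permutation p was 1.0.

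Within batch 1 the level of PaChr17.331 in NAint113 was 0.600 times the mean of EU60 and EU78, and within batch 2 NAint191 was 1.12 times EU620. The batch 2 ratio compares single libraries whose counting intervals overlapped (0.931 to 1.395 CPM in NAint191 and 0.837 to 1.24 CPM in EU620), so it shows no direction. EU620 and NAint191, the libraries of batch 2, held the lowest levels of their groups.

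**Figure D1:**
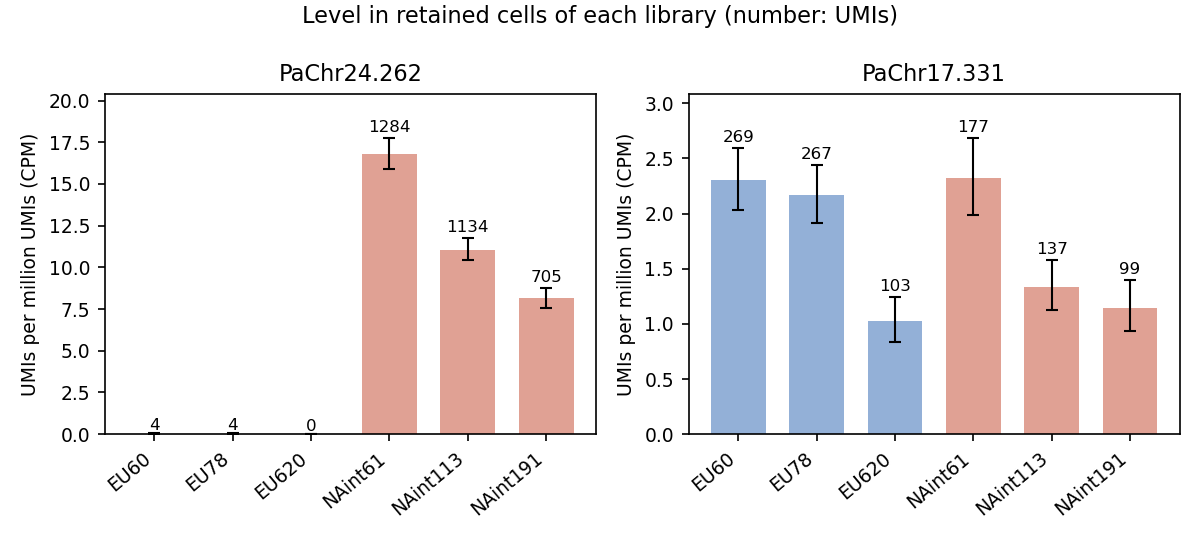
Level of PaChr24.262 (left) and PaChr17.331 (right) in CPM in the retained cells of each library, EU in blue and invasive in red. Bars are single libraries, lines are exact 95% Poisson intervals and the numbers are UMIs; PaChr24.262 lies between 8.16 and 16.8 CPM in the invasive libraries and at or below 0.0342 CPM in EU, while the groups overlap for PaChr17.331.

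The balance between the copies differed between the populations as well. PaChr24.262 made up 87.9%, 89.2% and 87.7% of the UMIs of the pair in NAint61, NAint113 and NAint191. In EU60, EU78 and EU620 the share was 1.47%, 1.48% and 0%. The means were 88.3% ± 0.835 (SD, n = 3) in the invasive group and 0.980% ± 0.849 (SD, n = 3) in EU, a difference of 87.3 percentage points (exact two-sided permutation p = 0.1, the smallest this design allows). The levels of both genes differed between the invasive plants, while the exact binomial intervals of their shares overlapped (86.1% to 89.5%, 87.4% to 90.9% and 85.2% to 89.9%). Within batch 1 the shares were 89.2% against 1.47% and 1.48%, and within batch 2 they were 87.7% against 0%. How alike the transcripts of the copies are was not known here, so the split of reads between them is uncertain and was not tested. In EU60, EU78 and EU620, 4 of 273, 4 of 271 and 0 of 103 UMIs of the pair were counted to the B copy. These EU counts do not show how reads of the B copy were split in the invasive plants.

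The 8 EU cells with PaChr24.262 each held exactly 1 UMI of it. They were retained as epidermis-like, parenchyma-like, vascular parenchyma-like or vascular tissue-like cells, and none carried a barcode that also occurred in an invasive library. Their share was 0.0276% of 28963 EU cells, beside 7.91% of 29058 invasive cells with a UMI. The origin of the 8 EU UMIs was not tested. The median depth was 9018 UMIs per cell in EU and 6727 in the invasive group.

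Where a cell of an invasive plant had PaChr24.262, it usually had a single UMI. In NAint61, 791 cells held it, 559 of them with exactly 1 UMI, and the highest cell held 16. In NAint113, 788 of 937 such cells held 1 UMI, and in NAint191, 471 of 570, with a highest cell of 7 UMIs in each. Cells with the transcript were deeper than those without, with a median of 18008 against 6774 UMIs in NAint61, so shares of cells follow depth. After each cell had been thinned to 2000 UMIs, with 3776 EU and 5321 invasive cells too shallow to enter, 2.01% of invasive cells and 0.00397% of EU cells kept a UMI.

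PaChr24.262 also differed between the groups relative to the summed RNA of the B chromosome. Per 1000 UMIs of all B genes it gave 22.5, 18.0 and 16.7 UMIs in NAint61, NAint113 and NAint191. In the EU libraries it gave 0.304, 0.649 and 0, although these libraries held 13173, 6161 and 7641 B chromosome UMIs. On the log2 scale, with 0.5 added to its count, its level relative to the other B genes was 6.25 higher in the invasive group (exact permutation p = 0.1, the smallest possible). That value falls to 5.27 without EU620, in which the gene had no UMI. The sum also holds B genes that did not separate the groups, such as PaChr24.260. The measure was not computed for other B genes, and PaChr24.240 and PaChr24.218 had larger edgeR log2 fold changes. The excess was therefore not shown to be particular to PaChr24.262. B chromosome RNA summed to 488 to 748 CPM in the invasive libraries and 49.9 to 113 CPM in EU. The number of B chromosomes in each plant was not used here.

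Among the 285 B genes PaChr24.262 ranked 11 by UMIs in the invasive group, with 1.92% of their B chromosome UMIs against 0.0297% in EU. By log2 fold change it ranked 22 of the 107 B genes tested. Their median log2 fold change was 4.45, beside 0.04 over all genes tested. The edgeR fit called 6 B genes higher and 0 lower, with 61 higher and 2 lower at an unadjusted p under 0.05, and DESeq2 called 48 higher and 2 lower. Of the PaChr24 features, 111 had no UMI in any library.

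Other B genes that the study annotates give the scale. PaChr24.240, annotated as the cohesin subunit SCC3, which helps to hold sister chromatids together, had 9, 10 and 8 UMIs in the EU libraries against 10198, 9253 and 6291 in NAint61, NAint113 and NAint191 (log2 fold change 10.21 ± 0.49 SE, edgeR adjusted p = 0.00661). PaChr24.218, a second SCC3 copy, had 3, 3 and 1 against 2176, 2200 and 1585 UMIs (9.915 ± 0.52 SE, edgeR adjusted p = 0.00661). PaChr24.82, annotated as GATA2, a zinc finger transcription factor family, rose by 6.77 on the same scale (edgeR adjusted p = 0.0485). PaChr24.43, annotated as the nuclear import receptor importin α3, had 120, 4 and 9 UMIs against 12259, 21303 and 14697 and was not called (8.70 ± 1.31 SE, edgeR adjusted p = 0.311). PaChr24.262 thus had a fold change between those of PaChr24.82 and PaChr24.218, with a standard error above those of both.

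Of the 20 B chromosome genes numbered nearest to PaChr24.262, 9 had enough counts to test and 7 of these had a positive log2 fold change. The edgeR fit called PaChr24.256 alone, and DESeq2 called 4 of them higher. PaChr24.256 stood out among them, with 1000, 629 and 341 UMIs in NAint61, NAint113 and NAint191 against 2, 4 and 6 in the EU libraries (log2 fold change 7.90 ± 0.66 SE, edgeR adjusted p = 0.0485). The genes on either side, PaChr24.261 and PaChr24.263, were present in all EU libraries. PaChr24.261 had 2330, 3614 and 985 UMIs in the invasive libraries against 863, 85 and 31 (edgeR adjusted p = 0.489). PaChr24.263 had 13, 18 and 3 against 15, 19 and 5 (edgeR adjusted p = 0.997), so its groups overlapped. PaChr24.260, named after its values were seen, had 488, 248 and 1 against 527, 1053 and 714 UMIs, or 6.39, 2.42 and 0.0116 CPM against 4.51, 8.53 and 7.11 CPM, so its groups overlapped (edgeR adjusted p = 0.737).

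Around PaChr17.331, 18 of the 20 nearest gene numbers were in the files and 16 were tested. The edgeR fit called 0 of them, with 1 higher and 1 lower at an unadjusted p under 0.05, and DESeq2 called 0. Their median log2 fold change was -0.29, close to the -0.33 of PaChr17.331 itself.

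Cells were grouped into classes with the study's marker genes after all B chromosome genes and PaChr17.331 had been left out of the clustering, so neither gene shaped the classes. The meristem-like class held 990 cells and the G2/M phase-like class, cells before or in division, 437 cells. The study chose these markers on the same libraries. Class names here carry "-like" because they rest on those markers alone. The parenchyma-like class joins parenchyma 1 with unknown 16, a type that the study left unidentified but placed in parenchyma. Unknown 16 held 3300 of its 5261 invasive cells and 2414 of its 3851 EU cells. At a clustering resolution of 1.2, a cluster of 3062 cells with the leading gene of the main unknown 16 cluster was named ground meristem.

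PaChr24.262 was highest in the dividing classes of every invasive plant. In NAint61, NAint113 and NAint191 it stood at 69.4, 52.5 and 63.0 CPM in G2/M phase-like cells. In meristem-like cells the levels were 58.2, 37.1 and 43.4 CPM. Within each plant the G2/M phase-like level was the higher, while the ranges over plants overlapped.

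Mesophyll-like cells followed at 28.2, 25.1 and 12.70 CPM, below all dividing-class values. The other named classes had means between 6.63 and 10.4 CPM. Epidermis-like cells were lowest, at 9.86, 7.42 and 2.61 CPM. The lowest mesophyll-like value lay just above the highest parenchyma-like value, 12.56 CPM, but below the highest vascular tissue-like value, 12.76 CPM. Some classes join several cell types, and single types were less clearly apart from mesophyll-like cells. Parenchyma 1, with a mean of 17.2 CPM, overlapped the mesophyll-like values between plants. So did the vascular tissue type taken alone, with a mean of 14.9 CPM. The highest values of protoderm 1, bundle sheath and epidermal cell 1 were 14.81, 14.59 and 13.8 CPM. They too lay above the lowest mesophyll-like value. From parenchyma-like cells downwards, neighbours among the named classes overlapped between plants and could not be told apart.

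In EU, none of the 133 G2/M phase-like, 441 meristem-like and 1839 mesophyll-like cells held a UMI of PaChr24.262. In G2/M phase-like cells the pooled invasive level was 58.0 times the floor of 3 counts over the EU cells. In meristem-like and mesophyll-like cells it was 152.5 and 107.4 times that floor. The exact Poisson intervals of these EU zeros reach above the floor, to 1.37, 0.371 and 0.208 CPM, so the ratios are no lower bounds. By the exact binomial interval the 133 G2/M phase-like cells allow up to 2.74% of cells with a UMI and the 441 meristem-like cells 0.833%. In the invasive group the shares were 46.7% and 42.1%.

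By class, the edgeR log2 fold changes of PaChr24.262 ran from 6.72 in vascular parenchyma-like to 10.33 in meristem-like cells. Adjusted p-values lay between 0.0594 and 0.375, so 0 of 7 classes passed. Of all genes tested per class, 0.00516% were called higher in G2/M phase-like cells, 0.0181% in parenchyma-like cells and 0% in the other classes. All 7 were under an unadjusted p of 0.05, and DESeq2 called all 7, with adjusted p-values from 1.19e-10 to 2.3e-06. DESeq2 called 0.486% of the genes it tested higher in G2/M phase-like, 1.26% in meristem-like, 2.34% in mesophyll-like, 0.451% in parenchyma-like, 1.36% in vascular tissue-like, 0.603% in vascular parenchyma-like and 2.07% in epidermis-like cells. The EU values rest on 0 to 3 UMIs per class, so the fitted sizes depend on how such counts are treated and are no bounds. For PaChr17.331 the edgeR fit called 0 of 7 classes, with adjusted p-values from 0.792 to 0.955 and none under an unadjusted p of 0.05, and DESeq2 called 0, with no adjusted p for G2/M phase-like and mesophyll-like cells.

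**Figure D2:**
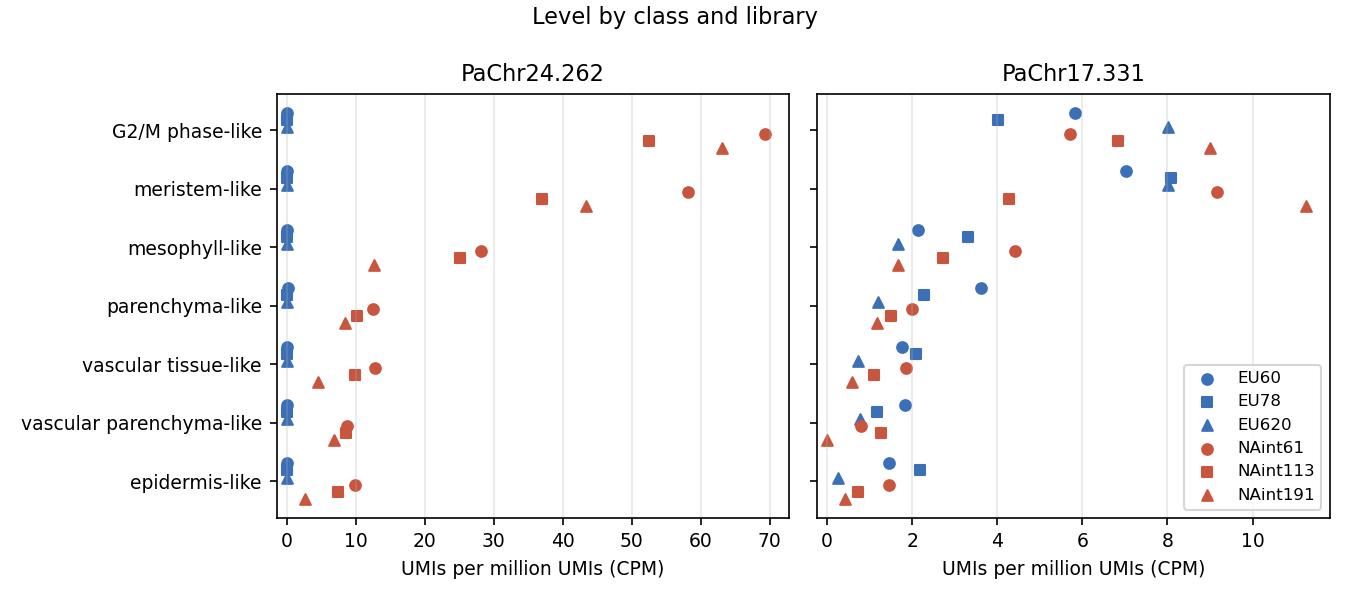
Level of PaChr24.262 (left) and PaChr17.331 (right) in CPM in 7 marker-named cell classes; each symbol is 1 library, EU in blue and invasive in red. Both genes are highest in the G2/M phase-like and meristem-like classes, PaChr24.262 in the invasive libraries and PaChr17.331 in all 6.

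PaChr17.331 was also highest in the dividing classes, in both populations. In meristem-like cells it stood at 7.04, 8.08 and 8.01 CPM in the EU libraries, and at 9.175, 4.29 and 11.25 CPM in NAint61, NAint113 and NAint191. In G2/M phase-like cells it stood at 5.83, 4.02 and 8.01 CPM in EU and at 5.72, 6.85 and 9.01 CPM in the invasive libraries. The 2 dividing classes overlapped each other, and so did the populations.

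The other named classes had lower means, from 1.26 to 2.37 CPM in EU and from 0.691 to 2.94 CPM in the invasive group. Counts behind single values were small: the G2/M phase-like level of EU78 rests on 2 UMIs. The EU dividing classes together held 92 UMIs of the gene.

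When G2/M phase-like and meristem-like cells were joined, PaChr17.331 stood at 6.80, 7.42 and 8.01 CPM in the European plants, against 2.06, 2.03 and 0.773 CPM in all other retained cells. In NAint61, NAint113 and NAint191 it was at 7.69, 4.75 and 10.4 CPM against 1.85, 1.17 and 0.703 CPM. The level was higher in the dividing classes in 6 of 6 libraries, by a mean log2 ratio of 2.51 with a range of 1.740 to 3.90 (exact two-sided sign-flip permutation test, p = 0.031, the smallest that 6 libraries allow). A log2 ratio above 0 in all 6 libraries was found for 23.2% of the genes with at least as many UMIs, and a higher mean log2 ratio for 1.31% of them.

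For PaChr24.262 the dividing classes of NAint61, NAint113 and NAint191 stood at 63.0, 39.9 and 50.6 CPM against 12.80, 9.64 and 6.14 CPM in all other cells. These are ratios of 4.92, 4.13 and 8.25, or a mean log2 ratio of 2.47 ± 0.52 (SD, n = 3). The dividing classes held 29.98%, 17.02% and 28.2% of the gene's UMIs but only 8.00%, 4.73% and 4.55% of all UMIs. With 3 libraries the exact sign-flip test cannot go below p = 0.25. The exact sign-flip test over 6 libraries gave a mean log2 ratio of 2.56 and p = 0.031, but the EU dividing classes held 0 UMIs, so their 3 ratios come from the 0.5 added to each count and measure nothing.

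The invasive ratio of PaChr24.262 was near that of its homologue. In NAint61, NAint113 and NAint191 the log2 ratios were 2.301, 2.05 and 3.05 for PaChr24.262 and 2.07, 2.05 and 3.90 for PaChr17.331. Both were largest in NAint191. For PaChr17.331 the mean log2 ratio was 2.34 in EU and 2.67 in the invasive group, a difference of 0.33 that did not exceed the spread between libraries (exact two-sided permutation p = 0.5).

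Summed, the rest of the B chromosome was at nearly the same level in dividing and other cells. The log2 ratios of all other B genes, summed, were 0.01, 0.02 and 0.24 in NAint61, NAint113 and NAint191. PaChr24.262 exceeded them by 2.38 ± 0.40 (SD, n = 3), in 3 of 3 libraries (exact sign-flip p = 0.25, the smallest possible). PaChr24.240 had ratios of 0.05, 0.19 and 0.58, PaChr24.218 of -0.10, 0.08 and 0.49, and PaChr24.43 of -0.28, -0.13 and -0.24. For their A chromosome homologues the mean log2 ratio over 6 libraries was 0.54 for PaChr10.167 and 0.80 for PaChr21.972 (SCC3), and 0.04 for PaChr9.309 and 0.24 for PaChr12.264 (importin α3), beside the 2.51 of PaChr17.331.

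Among the 64 B genes with at least 100 UMIs in the invasive libraries, PaChr24.262 had the highest mean ratio, the median was 0.12, and 16 genes lay above 0 in all 3 libraries. This ranking was made after seeing the data. PaChr24.256, its neighbour called above, ranked 5 with 1.53, 2.44 and 2.78. The top 5 overlapped between plants and cannot be told apart in rank. Over the whole genome, 93 of 10363 genes with at least as many invasive UMIs had a higher mean ratio than PaChr24.262.

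**Figure D3:**
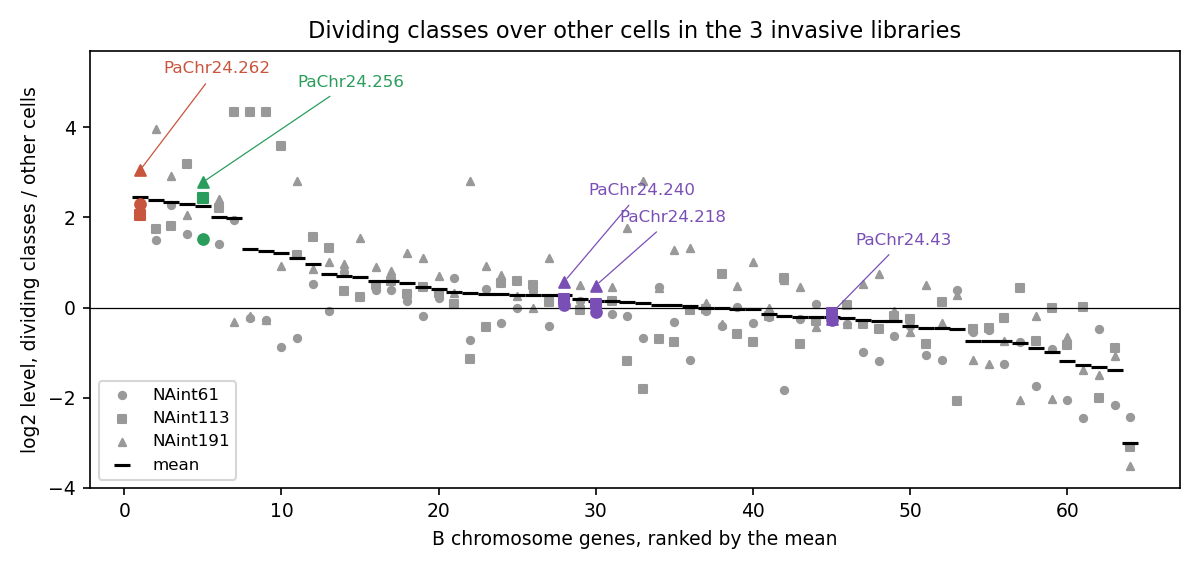
Log2 ratio of the level in G2/M phase-like and meristem-like cells to that in all other cells for 64 B chromosome genes in the 3 invasive libraries, ranked by their mean (black dashes). Symbols are libraries; PaChr24.262 (red) and PaChr24.256 (green) lie above 1.5 in each library, while PaChr24.240, PaChr24.218 and PaChr24.43 (purple) lie near 0.

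The shares of cells with a UMI were likewise highest in the dividing classes. In invasive plants 46.7% of 304 G2/M phase-like and 42.1% of 549 meristem-like cells held PaChr24.262, against 6.47% of epidermis-like cells. Dividing cells were deeper, with medians of 10787 and 14825 UMIs against 9724 in epidermis-like cells. After thinning to 2000 UMIs a UMI was left in 24 of 236 G2/M phase-like, 46 of 509 meristem-like (9.04%) and 79 of 5986 epidermis-like cells (1.32%). For PaChr17.331 the thinned shares rest on 5 and 2 G2/M phase-like cells in EU and invasive plants and are not compared. The dividing classes made up 2.74%, 1.43% and 1.69% of the retained cells of the EU plants, and 3.58%, 2.33% and 3.34% in the invasive libraries, overlapping ranges. Their part in the whole-shoot levels was not tested, and in such sums more cells of a class and more RNA per cell cannot be told apart.

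While the level of both genes differed between classes, the share of the B copy varied little, a comparison added after seeing the data. Pooled over the invasive libraries, PaChr24.262 made up 85.6% of the pair in meristem-like cells (exact 95% interval 82.3% to 88.5%) and 90.4% in G2/M phase-like cells (86.8% to 93.2%). The other named classes lay between 86.9% and 89.8%, each interval overlapping the rest. The lowest single value was 79.4% in meristem-like cells of NAint191 (71.6% to 85.9%, 136 UMIs). The highest was 100% in vascular parenchyma-like cells of the same plant, where all 28 UMIs were of the B copy (87.7% to 100%). In contrast, the yield of PaChr24.262 per 1000 B chromosome UMIs ran from 12.02 in parenchyma-like to 92.4 in G2/M phase-like cells.

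**Figure D4:**
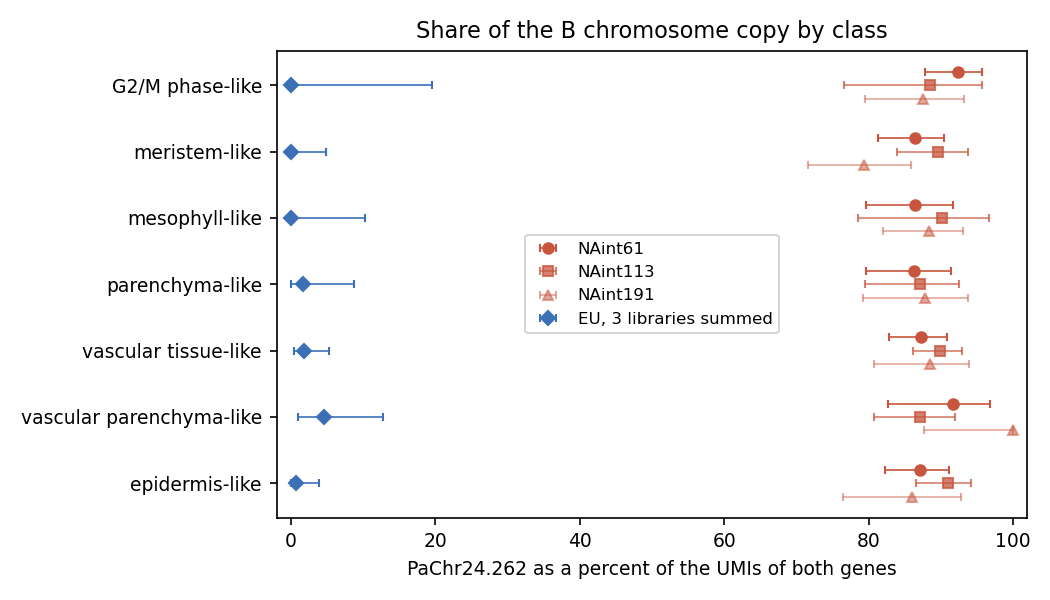
PaChr24.262 as a percent of the UMIs of PaChr24.262 and PaChr17.331 together, in 7 cell classes, for each invasive library (red) and for the 3 EU libraries summed (blue), with exact 95% binomial intervals. Invasive shares lie between 79.4% and 100% in every class, and EU shares between 0% and 4.55%.

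The copies were also found in the same cells. In NAint61, 60 retained cells held both transcripts, which is 7.585% of the cells with PaChr24.262 against 1.53% with PaChr17.331 among the rest. In NAint113 the shares were 3.20% and 0.854%, with 30 cells, and in NAint191 4.74% and 0.783%, with 27 cells. Cells with PaChr24.262 were deeper and more often dividing in each library (15.4%, 13.13% and 22.5% of them, against 3.58%, 2.33% and 3.34% of all cells). The part of depth and class in this overlap was not tested.

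Profiles over 96 sums of a library and a cell type with at least 20 cells describe which genes vary like these. The genes closest to PaChr24.262 were PaChr24.218, PaChr24.240 and PaChr24.82, with Pearson's r of 0.927, 0.924 and 0.915, then PaChr4.46 at 0.901 and PaChr24.43 at 0.900. The profiles of a library share its plant, population and depth, and PaChr17.331 had an r of 0.154 with PaChr24.262. Over the 48 invasive profiles alone, a choice made after seeing the data, r between the copies was 0.845. There PaChr24.262 ranked second of 22046 genes for PaChr17.331, after PaChr1.1425 at 0.846. For PaChr17.331 over all 96 profiles the closest genes were PaChr13.628 (0.791) and PaChr21.752 (0.783), to which the sources used here give no name.

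In the section of NAint61, both transcripts were counted in the tissue itself. PaChr24.262 had 846 counts in 792 of 78448 segmented cells, 19.44 CPM (18.15 to 20.8), and PaChr17.331 had 350 counts in 333 cells, 8.04 CPM (7.22 to 8.93). No segmented cell held more than 3 counts of either, and 9 held both. The section is 1 sample, with a median of 372 counts per segmented cell, so the intervals cover counting error only and no test between conditions exists.

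Relative to the single cells of the same plant, PaChr24.262 was 1.16 times as high in the section (1.06 to 1.26) and PaChr17.331 was 3.470 times as high (2.89 to 4.18). The B copy thus made up 70.7% of the pair (68.1% to 73.3%) in place of 87.9%. The other B genes, summed, were 2.3 times as high in the section. The tables come from different chips, carry different batch labels and were made separately, and the cause of these ratios was not tested.

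The tissue on the chip lay in 2 pieces, which were parted at the widest gap after the map had been seen. In the upper piece PaChr24.262 stood at 32.6 CPM (30.2 to 35.2) and in the lower piece at 8.06 CPM (6.95 to 9.30), so 77.8% of its counts came from 46.4% of all counts. PaChr17.331 stood at 10.60 CPM (9.23 to 12.12) and 5.83 CPM (4.89 to 6.90). The intervals of the pieces were apart for both genes, and the share of the B copy was 75.5% (72.5% to 78.3%) above and 58.0% (52.4% to 63.5%) below.

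Other signals moved with the pieces. The remaining B genes summed to 2544 CPM in the upper and 936 CPM in the lower piece, and 20 markers of the dividing classes to 3195 and 2423 CPM. The median segmented cell held 299 counts in the upper and 585 in the lower piece. The part of these in the difference between the pieces was not tested.

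Neighbouring segmented cells were weakly alike. Moran's I over 6 nearest neighbours, which is 0 without spatial order and approaches 1 for smooth patches, was 0.0658 for PaChr24.262 and 0.0717 for PaChr17.331, beside 0.200 for the other B genes summed and 0.192 for the dividing markers. These had counts in 1.01%, 0.42%, 44.95% and 56.82% of segmented cells. The part of such sparse counts in the lower values was not tested, so the members were not shown to have less spatial order. Inside the pieces it was 0.0659 above and 0.0573 below for PaChr24.262.

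At the level of single segmented cells the intervals overlapped: PaChr24.262 was at 17.8 CPM (15.03 to 20.9) in cells with no marker count and at 20.5 CPM (18.3 to 22.9) in those with 4 or more. Over squares of the section the levels did differ, at 33.5 CPM (30.3 to 36.9) in the 81 squares richest in dividing markers and 14.2 CPM (12.9 to 15.6) in the other 244 squares, with both pieces in these sums. In the lower piece alone, the 31 richest squares had 12.4 CPM (9.80 to 15.4) against 6.06 CPM (4.92 to 7.38) elsewhere. In the upper piece, with 49 such squares, the values were 38.7 CPM (34.1 to 43.7) and 31.2 CPM (28.2 to 34.5), and these intervals overlapped. The other B genes, summed, were also higher in the richest squares, at 2412 against 1398 CPM over the section, 1068 against 884 CPM in the lower piece and 2925 against 2394 CPM in the upper piece, and their part in the PaChr24.262 values was not tested. Over the section PaChr17.331 was also higher in the richest squares, at 10.7 against 7.1 CPM, and these intervals were apart. Within either piece PaChr17.331 did not differ between such squares beyond counting error, at 5.33 against 6.12 CPM below and 11.8 against 10.4 CPM above. The squares, like the pieces, were chosen after seeing the data.

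The single-cell order of classes was only partly seen in the section. In the 2246 segmented cells richest in markers of a class, PaChr24.262 was at 33.2 CPM for meristematic cells (25.2 to 42.9) and at 27.1 CPM for the G2/M phase (18.7 to 38.1), beside 19.5 CPM in all 44936 segmented cells of at least 300 counts. The G2/M phase interval overlapped that of all cells. The level was as high, 33.3 CPM (25.1 to 43.2), for protoderm 1, the young epidermis, and lay between 27.6 and 29.8 CPM for epidermal cell 1, parenchyma 1 and vascular parenchyma. Protoderm 1 and epidermal cell 1 share some of their markers, so their cells are not separate sets. The cells of each class were taken over both pieces of the section together. The lowest value, 3.20 CPM (1.18 to 6.97), was for mesophyll, the third highest class in the single cells. PaChr17.331 had 3 to 19 counts per list, and its intervals overlapped that of all cells for every list but bundle sheath, at 2.694 CPM (0.734 to 6.90).

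**Figure D5:**
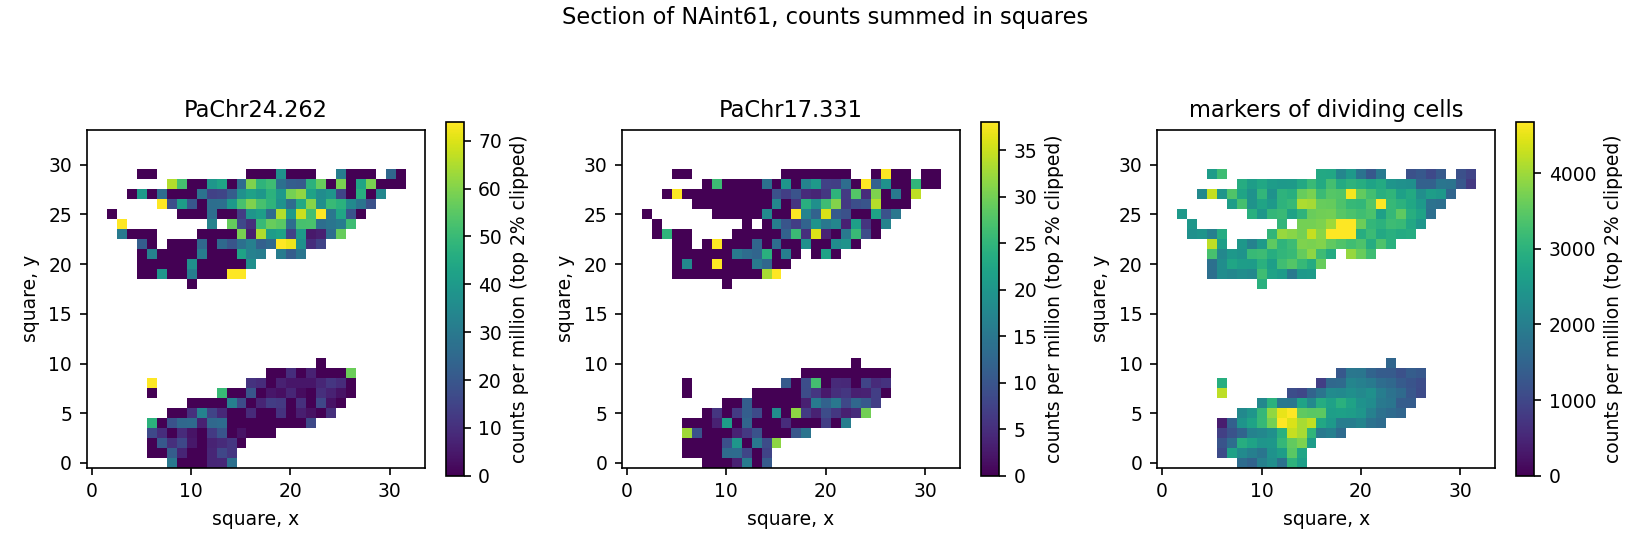
Level in CPM of PaChr24.262, PaChr17.331 and the 20 summed markers of dividing classes in squares of the NAint61 section (34 squares a side, positions in squares, squares under 20000 counts left blank, colour scales clipped at the top 2%). PaChr24.262 is concentrated in the upper piece, at 32.6 against 8.06 CPM, and PaChr17.331 stands at 10.60 against 5.83 CPM.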

How the data were processed

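The authors aligned the single-cell reads to their *P. australis* assembly with Cell Ranger 8.0 and deposited filtered UMI count matrices; the spatial matrix holds deposited counts per segmented cell, and its segmentation settings are not given in the sources used here. Cells with at least 500 genes and at most 30% of UMIs on features named as scaffolds were retained. Scrublet's own threshold marked 3 cells and was judged not to have worked, so the highest-scoring cells were dropped, as many per library as the study's doublet shares give (7098 cells). Cells were embedded on 3000 variable genes with 35 components and Harmony, and clustered at a resolution of 0.8 into 36 clusters (scanpy 1.11.5). Clusters were named from up to 10 markers per type, at least 3 detected, by mean z-score of at least 1; 16.3% of cells stayed unnamed. UMIs were summed per library and class and fitted with edgeR 4.0.16 (TMM, genes with 10 counts in some library, mean reads per cell as covariate), with DESeq2 1.42.0 as the alternative; counts entered as deposited. Simulated data with 100 genes at each size gave back 41% of log2 changes of 1 and 99% of changes of 2 over 32370 genes. The simulation gave every gene the same dispersion and no batch effect, and changed only genes with a mean of at least 10 counts. Its recovery therefore does not measure the power of the tests on the real libraries. Each library is 1 plant. Genes were named by rule: the pair, the B genes the study annotates with their homologues, neighbours that were called, and the closest profiles. The genes, lists and tests were chosen with earlier results of these data known. RefSeq entries matched 0 of the gene identifiers, so no sequence or position is given.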

Additional observations from a re-analysis of the deposited data

How the results depend on the processing

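The direction of the whole-shoot difference was kept for both genes under every alternative run. For PaChr24.262 the edgeR log2 fold change ran from 8.16 to 9.20 when 1 library was left out, with adjusted p-values of 0.0824 to 0.322 and 0 to 3 genes called over the whole shoot in place of 7. It passed the threshold with DESeq2 (8.93) and with no low-count filter (8.83), which called 938 and 10 genes, and of 7 classes it passed in 1 without the covariate and in 7 with DESeq2. For PaChr17.331 the leave-one-out range was -0.82 to -0.17. The B copy share difference stayed within 86.8 to 87.6 percentage points and the level relative to other B genes within 5.27 to 7.01. Without any 1 library the sign-flip test cannot pass, since 5 libraries allow no p below 0.0625. The mean log2 ratios of dividing cells were then 2.228 to 2.66 for PaChr17.331. For PaChr24.262 they were 2.11 to 2.86, but these means include EU ratios that rest on 0 UMIs in dividing cells. Those EU ratios measure nothing, so this range does not show how stable the PaChr24.262 ratio is. In the 3 invasive libraries alone, added after seeing the data, PaChr24.262 gave 2.47. The planned difference of that ratio between populations, -0.18, rests on EU counts of 0 and ran from -0.99 to 0.90 without 1 library (0.90 without EU620, 0.03 without NAint113), and was 0.33 with PaChr17.331 in its place. Moran's I of PaChr24.262 was 0.0379 over 12 neighbours and 0.0610 in segmented cells with at least 100 genes, and that of PaChr17.331 was 0.0379 and 0.0605. Equal replicate numbers share a batch for numbers 2 and 3 but not for number 1, and the deviations of equal numbers correlated by -0.02, 0.71 and 0.79 for numbers 1, 2 and 3, so they were not taken as pairs. A replicate block gave log2 fold changes of 8.99 (adjusted p = 0.107, edgeR) and -0.22 (0.868), with 2 genes called in place of 7 and 0 classes for either gene. Batch as a factor gave 9.01 (adjusted p = 0.169, edgeR) and -0.27 (0.91), with 2 genes called. In that fit NAint61, alone in its batch, adds nothing to the contrast. The whole-shoot tests rest on 3 plants per group, PaChr24.262 on 8 UMIs in EU, and the section values of PaChr17.331 on 350 counts.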
